A study of Mus musculus with 4 samples.

Results

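The cytotoxic granule genes described here are 10 genes, Gzma, Gzmb, Gzmc, Gzmk, Gzmm, Prf1, Nkg7, Srgn, Serpinb9 and Serpinb6b, chosen by name and read on every probe set that carries only that gene's symbol. They were read on 12 of the 45101 probe sets of the array and are 10 of the 12424 genes compared. The RNA came from intraepithelial lymphocytes of the gamma delta type, which are T cells lodged between the epithelial cells of the gut. They had been sorted from colons of C57b/6 mice raised under conventional conditions. Of the 4 arrays, 2 are from untreated mice. The other 2 are from mice that drank 2% dextran sulfate sodium (DSS), which damages the lining of the colon, for 5 days and had plain water for 3 more days. The labels give no age and no number of animals per sample, and nothing says whether replicates came from separate animals or sorts, so each p-value reflects the spread between these arrays alone, which may be technical. The comparison asks how transcripts of these lymphocytes differ after DSS injury and recovery.

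Cytotoxic lymphocytes store granzymes, which are serine proteases, in secretory granules together with perforin, a protein that forms pores through which granzymes reach the cytosol of a target cell. Serglycin, the proteoglycan encoded by Srgn, packs these proteins inside the granule. The lymphocyte guards its own cytosol with serpins, inhibitors that trap serine proteases, of which Serpinb9 acts on granzyme B. Intraepithelial lymphocytes are known for carrying granzyme transcripts without added stimulation.

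None of the 10 genes passed the test of DSS against untreated samples in limma, a moderated linear model fitted to all genes, with Benjamini-Hochberg adjustment at 0.05. It called 0 of the 10, against 0.0% of all genes. At an unadjusted p under 0.05 it had 0 of the 10 and 934 of 12424 genes (7.52%). The DSS arrays lay entirely above the untreated arrays for 1 granule gene, Gzmc, against 17.2% of all genes, and entirely below them for 1, Gzmb, against 23.8% of all genes. The groups overlapped for the other 8, so 2 of 10 were separate against 41.0% of all genes. The median log2 difference, DSS minus untreated, was -0.09 over the 10 genes and -0.07 over all genes. Neither count stands apart from the background shares. With 2 arrays per group the smallest p that an exact two-sided permutation test could give is 0.333.

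**Figure D1:**
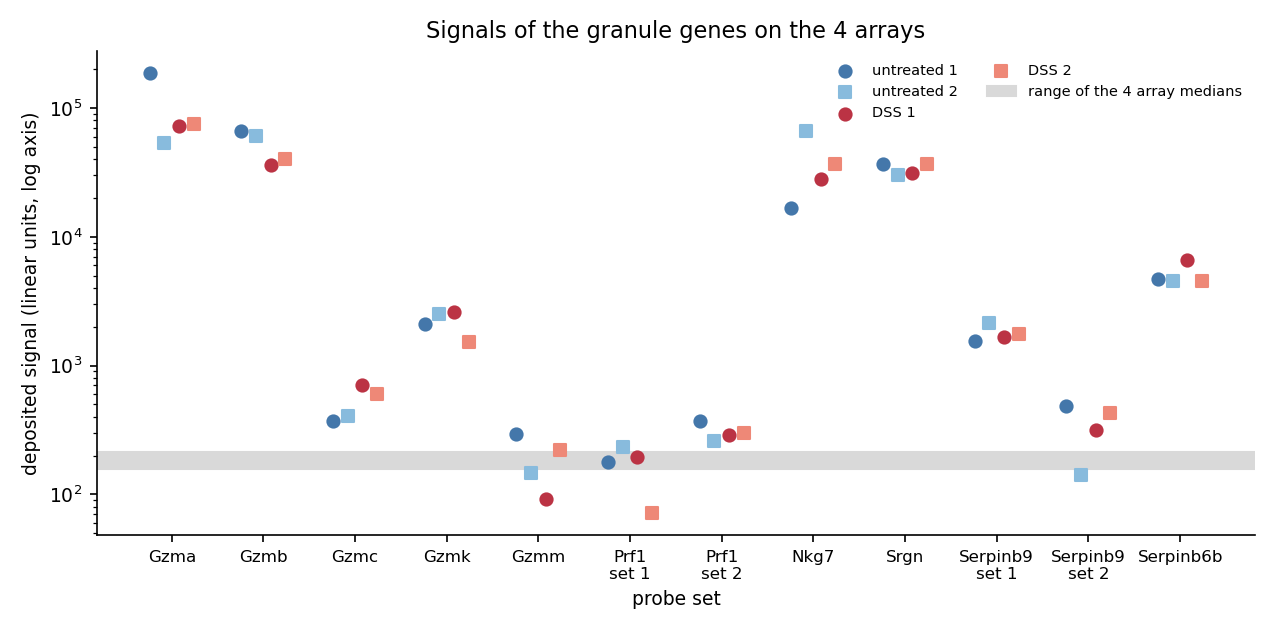
Deposited signal on a log axis for each of the 12 probe sets; every point is 1 array (blue untreated, red DSS; circle replicate 1, square replicate 2), and the grey band spans the 4 array medians. For Prf1, set 1 is the dimmer probe set; for Serpinb9, set 2 is. Only for Gzmb and Gzmc are both DSS arrays on one side of both untreated arrays, and Gzma and Nkg7 have their widest spread between the untreated arrays.

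Several features of the arrays bear on all of these values. The deposited signals average 500.0 on each array once the lowest and highest 2% are dropped, but the median signals were 194 and 214 without DSS and 157 and 163 after it. Hybridisation controls, bacterial and phage transcripts added in fixed amounts before hybridisation, averaged 82269 and 59067 over 18 probe sets without DSS and 14372 and 15271 after it. How the arrays were processed and whether the mice had DSS therefore cannot be told apart. The signal ratio of the 3′ to the 5′ probe set of beta-actin was 14.7 and 23.0 without DSS and 16.0 and 10.6 after it. This ratio thus differed within groups as well, and its bearing on the gaps between replicates was not tested. Of the summed signal, 25.5% and 24.2% fell to the top 100 probe sets on the untreated arrays, against 12.9% and 15.0% after DSS. The T cell receptor complex genes Cd3d, Cd3e and Cd3g and the gamma chain segment Trgv4 had signals of 3898 or more on every array. Markers of macrophages and dendritic cells were higher on both DSS arrays for 16 of 20 genes tested and lower for 0. Over all genes these shares were 17.2% and 23.8%. Of the 16, 2 exceeded the array medians only after DSS. The groups overlapped for the other 4, Itgax, Cd209a, Sirpa and Fcer1g, with log2 differences of -0.13, -0.33, -0.32 and -0.07. The summed signal of the 20 markers was 16863 and 15236 without DSS and 76271 and 105987 after it. In bulk samples such as these, fewer cells of a type and less RNA per cell cannot be told apart. Quantile normalization and scaling to a common median were tried as well, and their values are given for the 10 genes and for some of the lists. They moved the median difference of all genes from -0.07 to 0.01 and to 0.25.

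Gzmb encodes granzyme B, which cleaves after aspartate and activates caspases in the target cell. Its signals were 65869.8 and 60139 on the untreated arrays and 35792 and 40271 after DSS. Both DSS arrays were below both untreated arrays, and replicates lay close together. The log2 difference was -0.73 ± 0.34 (SE, n = 2 per group; 95% interval -1.53 to 0.08), a 1.66-fold lower level in DSS samples that did not pass (limma adjusted p = 0.65). The direction was the same under every scaling tried, but the size was not. It was -0.16 after quantile normalization, where the groups overlapped, and -0.38 at a common median, against a median of 0.25 for all genes. Gzmb is among the 125 brightest genes, of which 57.6% were lower and 0.8% higher on both DSS arrays, with a median of -0.46.

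Gzmc, which encodes granzyme C, gave 374 and 406 on the untreated arrays and 709 and 602 after DSS. Both DSS arrays were above both untreated arrays, at signals that exceeded the median of every array. The untreated signals were not far above their array medians of 194 and 214. Gzmc was read on 1 probe set, and whether it also reads transcripts of related granzymes was not examined. The log2 difference was 0.70 ± 0.40 (SE, n = 2 per group; 95% interval -0.25 to 1.66) and did not pass (limma adjusted p = 0.68). It was 0.85 after quantile normalization and 1.03 at a common median, with the groups separate in each. The class of genes of similar brightness had a median of -0.14.

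Gzmb and Gzmc are neighbours among the protein-coding genes of chromosome 14, at the end of a cluster that holds Gzmf, Gzmn, Gzmg, Gzmd and Gzme as well. They are the 2 granule genes whose groups did not overlap, and they lay in opposite directions, so their promoters are printed, with that of the widely spread Gzma. Each window runs from 250 bases before to 50 after the annotated start (RefSeq, GRCm38.p6), 5′ to 3′ on the gene's strand. Capitals mark matches on either strand to TGTGGT (Runx), TGANTCA (AP-1) and GGTGTGA (T-box), and no marked matches overlap.
Gzma promoter (chr13:113100932-113101231, minus strand): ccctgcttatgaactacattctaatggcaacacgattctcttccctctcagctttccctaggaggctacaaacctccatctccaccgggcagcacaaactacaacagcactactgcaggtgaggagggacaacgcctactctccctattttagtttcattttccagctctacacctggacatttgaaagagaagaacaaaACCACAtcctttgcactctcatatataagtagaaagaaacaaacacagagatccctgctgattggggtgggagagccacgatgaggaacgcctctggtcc
Gzmb promoter (chr14:56262285-56262584, minus strand): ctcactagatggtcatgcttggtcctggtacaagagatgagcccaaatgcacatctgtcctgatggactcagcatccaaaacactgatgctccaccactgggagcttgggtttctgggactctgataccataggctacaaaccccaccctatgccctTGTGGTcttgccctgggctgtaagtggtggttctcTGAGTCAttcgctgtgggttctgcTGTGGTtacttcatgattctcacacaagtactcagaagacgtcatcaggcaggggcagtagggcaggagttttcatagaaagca
Gzmc promoter (chr14:56234608-56234907, minus strand): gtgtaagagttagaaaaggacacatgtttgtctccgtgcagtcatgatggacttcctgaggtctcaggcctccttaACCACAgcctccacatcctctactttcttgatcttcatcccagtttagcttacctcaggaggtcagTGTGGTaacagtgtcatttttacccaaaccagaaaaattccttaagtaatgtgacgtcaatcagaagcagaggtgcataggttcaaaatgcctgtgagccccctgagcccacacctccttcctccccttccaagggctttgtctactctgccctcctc
The Gzmb window held 1 AP-1 match, TGAGTCA, and 2 Runx matches, the Gzmc window 2 Runx matches and the Gzma window 1. All 10 genes had windows in the table, 12 windows in all. A Runx match lay in 8 of the 12, against 16.8% of the 32851 windows of all genes. A T-box match lay in 3 of the 12, those of Gzmk, Nkg7 and 1 of the 2 Gzmm starts, against 3.98% of all windows. The AP-1 match was in 1, against 7.81%. These are matches of letters, and no binding was measured.

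Gzma encodes granzyme A, a tryptase, and its signals were 187735 and 53264 on the untreated arrays and 71928 and 75419 after DSS. The untreated arrays differed 3.52-fold from each other while the DSS arrays were nearly equal and lay between them. Its log2 level was 16.61 ± 1.28 (SD, n = 2) in untreated and 16.17 ± 0.05 (SD, n = 2) in DSS samples. The difference of -0.44 ± 0.59 (SE; 95% interval -1.83 to 0.95) was smaller than the gap of 1.82 between the untreated arrays (limma adjusted p = 0.84). Its direction depended on the scaling and on single arrays. It was 0.82 after quantile normalization, -0.10 at a common median, 0.47 without untreated replicate 1 and -1.35 without untreated replicate 2. In that last fit limma called it lower (adjusted p = 0.0124), as it called 6.08% of all genes. The spread there came from the DSS arrays alone, and the single remaining untreated array was assumed to vary like them.

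Gzmk, the neighbour of Gzma on chromosome 13, encodes the tryptase granzyme K. It gave 2116 and 2497 on the untreated arrays and 2625 and 1527 after DSS. The highest and the lowest value both belonged to DSS arrays. The log2 difference was -0.20 ± 0.43 (SE; 95% interval -1.21 to 0.81; limma adjusted p = 0.91), and it was 0.15 at a common median, below the median of all genes there, and -0.30 after quantile normalization.

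Gzmm, which encodes granzyme M, was dim. Its signals of 295 and 146 on the untreated arrays and 91.8 and 219.8 after DSS exceeded the median of their own array on 2 of the 4 arrays, untreated 1 and DSS 2. The log2 difference of -0.45 ± 0.73 (SE; 95% interval -2.18 to 1.28; limma adjusted p = 0.87) leaves the direction unresolved. It was -0.17 under both other scalings and 0.06 without DSS replicate 1.

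Prf1, the perforin gene, was read on 2 probe sets. The brighter gave 374 and 259 on the untreated arrays and 288 and 297 after DSS. Both DSS values lay between the untreated values, with a log2 difference of -0.08 ± 0.48 (SE; 95% interval -1.22 to 1.06; limma adjusted p = 0.97). It was 0.19 after quantile normalization and 0.23 at a common median. The dimmer gave 178 and 232 on the untreated arrays and 193 and 71.7 after DSS, above the array median on 2 of the 4 arrays, with a difference of -0.62 ± 0.76 (limma over probe sets, adjusted p = 0.83). With both probe sets averaged the difference was -0.35, and both DSS arrays were then below both untreated arrays, so whether the groups overlap depends on the choice of probe set. Signals this near the array medians limit what either probe set can show about perforin.

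Nkg7 encodes a membrane protein of cytotoxic granules that takes part in their release. Its signals were 16621 and 65673.5 on the untreated arrays and 27845 and 36729.6 after DSS. As for Gzma, both DSS arrays lay between the untreated arrays, but the order of the untreated arrays was the opposite, with the second 3.95-fold above the first. The log2 difference was -0.05 ± 0.64 (SE; 95% interval -1.56 to 1.46; limma adjusted p = 0.99). The difference was -1.04 without untreated replicate 1 and 0.94 without untreated replicate 2, in fits that took their spread from the DSS arrays alone. It was 0.30 under both other scalings.

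Srgn, the serglycin gene, had signals of 36553 and 30002 on the untreated arrays and 31054 and 36746.5 after DSS. The groups covered almost the same range, and the log2 difference was 0.03 ± 0.35 (SE; 95% interval -0.81 to 0.87; limma adjusted p = 0.99). It was 0.37 under both other scalings, where both DSS arrays were above both untreated arrays. Macrophages and neutrophils also make serglycin. The macrophage marker Csf1r had 4342 and 1162 on the untreated arrays and 33267 and 40991 after DSS on its brightest probe set. That log2 difference was 4.02, against 1.52 and 2.69 on its other 2 probe sets. The part of macrophages and neutrophils in the Srgn signal was not tested.

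**Figure D2:**
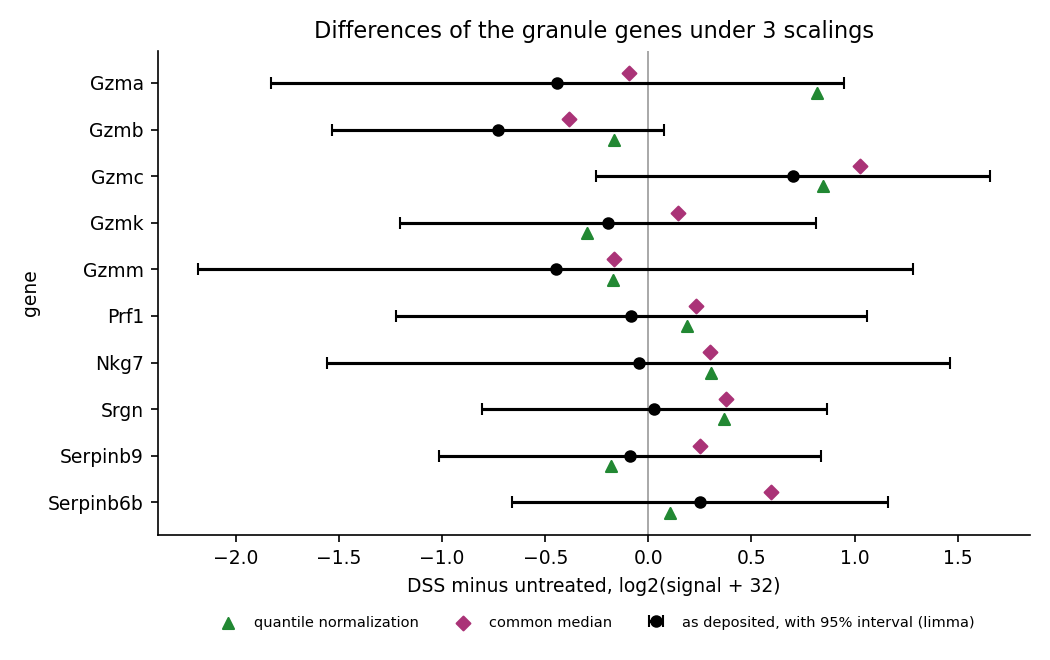
Log2 difference, DSS minus untreated, of the 10 genes: black points with 95% intervals from limma on deposited signals, green triangles after quantile normalization, purple diamonds at a common median. Every interval spans 0, and Gzma lies at -0.44 as deposited and 0.82 after quantile normalization.

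The serpin Serpinb9 gave 1557 and 2154 on the untreated arrays and 1675 and 1765 after DSS on its brighter probe set. The DSS values lay between the untreated ones, with a log2 difference of -0.09 ± 0.39 (SE; 95% interval -1.02 to 0.84; limma adjusted p = 0.96). The dimmer probe set had 485 and 142 against 319 and 429, a difference of 0.42 ± 0.63 (limma over probe sets, adjusted p = 0.86), so the probe sets gave opposite signs within wide errors. The brighter probe set gave -0.18 after quantile normalization and 0.25 at a common median, near the median of all genes there. Its neighbour Serpinb6b, a serpin of the same cluster on chromosome 13, gave 4702 and 4524 on the untreated arrays and 6606 and 4564 after DSS. A single DSS array stood above the other 3 values. The log2 difference was 0.25 ± 0.39 (SE; 95% interval -0.66 to 1.16; limma adjusted p = 0.86), and it was -0.01 without DSS replicate 1. It was 0.11 after quantile normalization and 0.59 at a common median.

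The 10 genes differed among themselves in how well the replicates matched. The gap between the untreated arrays was 1.98 for Nkg7 and 1.82 for Gzma on the log2 scale, larger than in 90.2% and 87.7% of all genes. For Serpinb6b, Gzmc and Gzmb it was 0.06, 0.11 and 0.13, and only 4.4%, 8.9% and 10.6% of genes had smaller gaps. Between the DSS arrays the widest gaps belonged to Gzmm (1.02) and Gzmk (0.77) and the smallest to Prf1 (0.04), Gzma (0.07) and Serpinb9 (0.07). Over all genes the median gap was 0.68 between untreated and 0.36 between DSS arrays. The 2 genes whose groups were separate had close replicates in both groups. So did Srgn, with gaps of 0.28 and 0.24, although its groups overlapped.

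**Figure D3:**
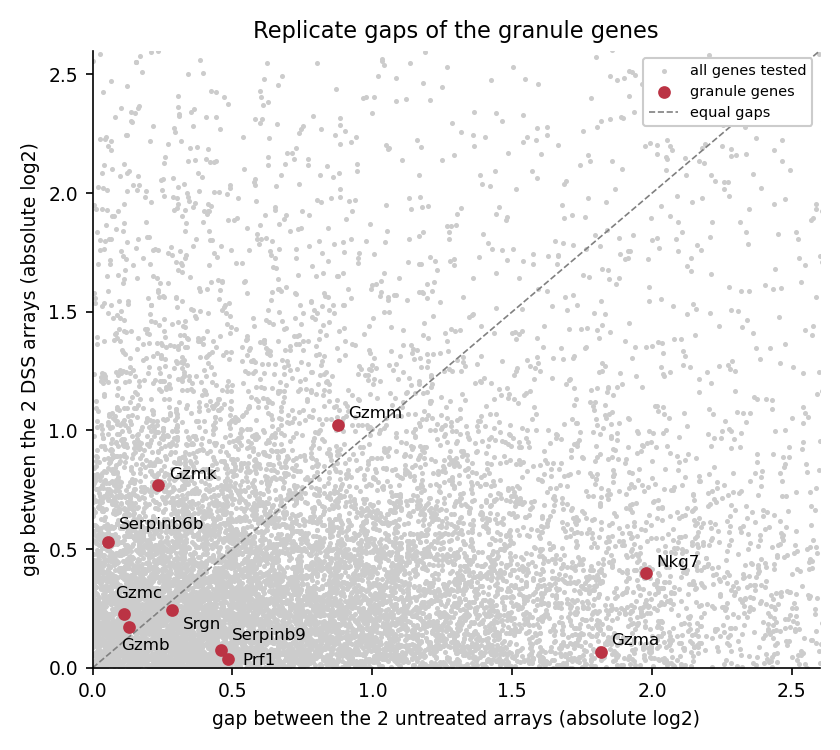
Absolute log2 gap between the 2 untreated arrays (x axis) and between the 2 DSS arrays (y axis) for all genes tested (grey) and the 10 granule genes (red); the dashed line marks equal gaps, and 503 genes lie beyond the axes at 2.6. Nkg7 and Gzma lie far to the right at 1.98 and 1.82 with DSS gaps of 0.40 and 0.07.

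Gzma, Gzmb, Nkg7 and Srgn are in the brightest class, and that class was lower as a whole. Over the 125 genes whose mean log2 level corresponds to a signal of 29869 or more the median was -0.46. Within it Gzmb was at -0.73, Gzma at -0.44, Nkg7 at -0.05 and Srgn at 0.03. Genes in the decile from 1704 to 3502, which holds Gzmk and Serpinb9, had a median of 0.16, and both genes were below it. Under quantile normalization 2 of the 10, Gzmc and Srgn, were higher on both DSS arrays (19.0% of all genes) and 0 lower (19.3%). At a common median 4 were higher, Gzmc, Srgn, Serpinb9 and Serpinb6b (30.9% of all genes), and 1 lower, Gzmb (12.5%). Among all genes whose groups did not overlap, 42.0% lay higher on the deposited scale, 49.6% with quantile-normalized values and 71.2% at a common median.

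**Figure D4:**
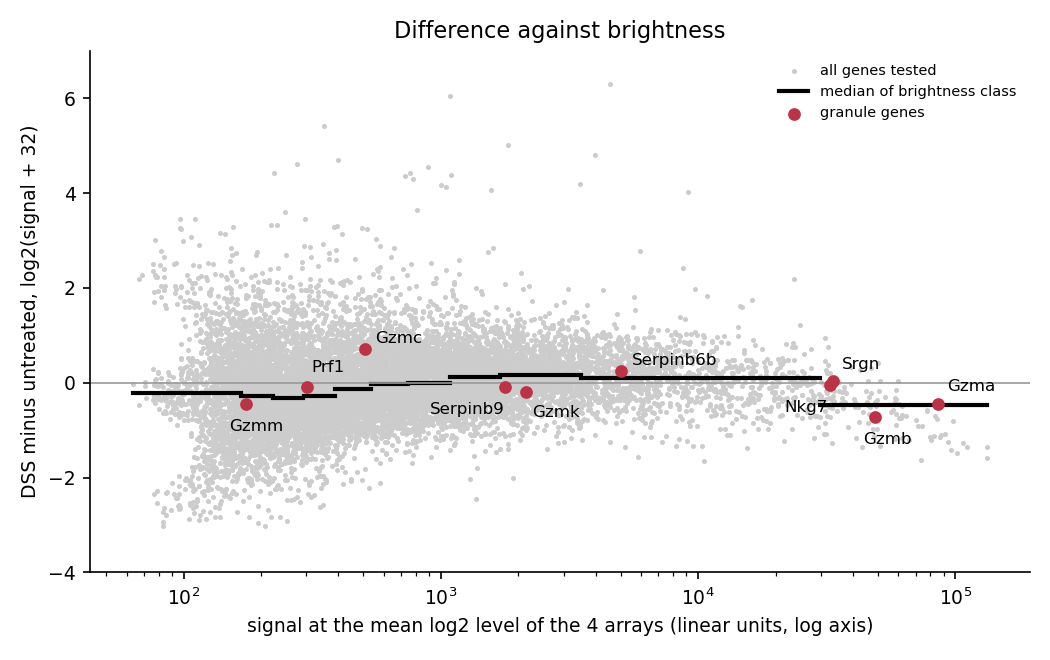
Log2 difference, DSS minus untreated, against the signal that corresponds to each gene's mean log2 level (log axis), for all genes tested (grey) and the 10 granule genes (red); black bars are the medians of 11 brightness classes. The brightest class, which holds Gzma, Gzmb, Nkg7 and Srgn, has a median of -0.46, and Gzmc lies at 0.70 above a class median of -0.14.

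The other proteases of the granzyme B cluster were mostly near or under the array medians, though Mcpt2 had 481 on untreated replicate 2, where the median was 214. Of 12 listed genes 11 had a probe set and 4 passed the filter on low signals, which asks for a signal above the array's median on at least 2 arrays. Gzmd, Gzme, Gzmf, Gzmg and Gzmn did not pass it. The highest of their signals was 279.5, for Gzmf on untreated replicate 2, where Gzmg had 238. Among the 4 tested, 1 was higher and 1 lower on both DSS arrays, against 17.2% and 23.8% of all genes. The higher one, Mcpt8, passed the filter through its DSS arrays only, which favours that direction, so the count supports nothing. The basophil protease Mcpt8 had 54.3 and 30.4 against 195 and 297, a log2 difference of 1.90 ± 0.91, and the mast cell chymase Mcpt4 had 362 and 272 against 189 and 16.3, -1.74 ± 0.91. Mcpt2 and the chymase Cma1 differed by 0.66 ± 0.91 and -0.77 ± 1.38 with overlapping groups. Limma called 0 genes of this and of each further list below.

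Genes for granule maturation were mostly higher in DSS samples. Of 9 tested, 6 were higher on both DSS arrays and 0 lower, against 17.2% and 23.8% of all genes, with a median log2 difference of 0.94, of 0.78 after quantile normalization and of 1.28 at a common median. Ctsc, the dipeptidyl peptidase that activates progranzymes, had 7121 and 7989 on the untreated arrays and 12350.1 and 17705 after DSS, a difference of 0.97 ± 0.38 (SE; limma adjusted p = 0.65) on its brightest probe set and 0.59 on another. M6pr, a mannose 6-phosphate receptor that sorts granzymes to the granule, differed by 1.06 ± 0.38. Cathepsin H (Ctsh), which can also process progranzyme B, had 402 and 122 against 3976 and 5076, a difference of 4.13 ± 0.56, and cathepsin L (Ctsl) 2.22 ± 0.53. Macrophages also express these genes, and 16 of 20 macrophage and dendritic cell markers were higher on the same arrays, Lyz2 by 5.00 and Ly86 by 4.55. Their part in these differences was not tested.

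Genes that move and release granules showed no common direction. Of 19 tested, 5 were higher and 2 lower on both DSS arrays, against 17.2% and 23.8% of all genes. Their median was -0.11, and 0.20 at a common median. The 4 with the smallest p were Vamp8, a fusion protein of the granule membrane (1.21 ± 0.49), the lysosomal membrane proteins Lamp2 (1.28 ± 0.57) and Lamp1 (0.80 ± 0.37), and the fusion protein Snap23 (0.80 ± 0.40), whose other probe sets gave -0.09 and 1.20. Lamp1 had 4324 and 4266 on the untreated arrays and 6796 and 8298 after DSS. Its protein appears on the cell surface when granules are released, but neither surface protein nor release was measured here. On the same arrays 16 of 20 macrophage and dendritic cell markers were higher, and the part of those cells in these differences was not tested.

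Other serpins of these groups were read for 8 of 13 listed genes, and 4 passed the filter. Of those, 3 were higher on both DSS arrays and 0 lower, against 17.2% and 23.8% of all genes. Serpinb1a and Serpinb8 are 2 of the 3 and passed the filter through their DSS arrays only, which favours that direction, so this count supports nothing. Serpinb1a, an inhibitor of neutrophil proteases, had 189 and 30.6 against 331 and 524, a log2 difference of 1.93 ± 0.78. Serpinb8 differed by 0.83 ± 0.67 and Serpinb6a by 0.46 ± 0.39, while Serpinb9b had 0.29 ± 0.80 with overlapping groups.

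Among 7 death ligands and cytotoxic cytokines 1 was higher and 1 lower on both DSS arrays, against 17.2% and 23.8% of all genes. Their median was 0.13. Fas ligand (Fasl), which kills through the receptor Fas, had 11089 and 3875 on the untreated arrays and 15095 and 11924.5 after DSS. Its log2 difference was 1.03 ± 0.54 (limma adjusted p = 0.66), and 1.27 on its other probe set. Tnfsf14 (LIGHT) differed by -1.15 ± 0.50. Ltb, a lymphotoxin chain, and Tnf had 0.46 ± 0.42 and 0.21 ± 0.52 with overlapping groups. Among 13 death receptors and granzyme targets 3 were higher and 0 lower, against the same shares of all genes, with a median of 0.11. Hmgb2, a chromatin protein cleaved by granzyme A, had the smallest p, with 1.28 ± 0.43 and 1.11 on its other probe set.

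Transcription factors and cytokine receptors that act on granule genes had a median of -0.10, and of 0.23 at a common median. Of 22 tested, 2 were higher and 5 lower on both DSS arrays, against 17.2% and 23.8% of all genes. The repressor Zeb2, which takes part in effector T cell maturation, had 538 and 769 on the untreated arrays and 211 and 258 after DSS, a log2 difference of -1.35 ± 0.45 (limma adjusted p = 0.65). The interleukin receptor Il21r differed by -1.15 ± 0.44 and Il15ra, which presents IL-15, by -1.66 ± 0.83. Il15ra had 486 and 304 on the untreated arrays and 246 and 30.7 after DSS. The last value was below that array's median of 163. Only 1 of 5 probe sets of Zeb2 and 1 of 2 of Il15ra passed the filter. Hopx had 0.66 ± 0.37 on its brightest probe set and -0.35 on another.

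Cells other than the sorted lymphocytes that carry granule genes were looked for by their markers. The counts that follow stand beside 17.2% of all genes higher and 23.8% lower on both DSS arrays. Of 7 NK and innate lymphoid genes tested, 1 was higher and 1 lower, with summed signals of 48819 and 55759.7 on the untreated arrays and 43057 and 39548 after DSS. Most of that sum was Klrd1 (CD94), which these lymphocytes also express and which differed by -0.45 ± 0.35. Ncr1, the NK cell receptor NKp46, ranged from 36.9 to 348. Of 8 mast cell and basophil genes, 3 were higher and 2 lower, and 2 of the 3, Hdc and Mcpt8, passed the filter through the DSS arrays only. The 8 genes summed to 2016 and 2561 on the untreated arrays and 3572 and 3314 after DSS. Most of that difference was Kit, and the sums also include Hdc and Mcpt8. Kit, the stem cell factor receptor of mast cells, had the smallest p, with 751 and 798 on the untreated arrays and 1967 and 1942 after DSS, a log2 difference of 1.30 ± 0.38, but -0.58 on its other probe set. Hdc, which makes histamine, differed by 2.17 ± 0.94. The high-affinity IgE receptor chain Fcer1a was below the median on every array. Of 6 alpha beta T cell genes tested, 0 were higher and 2 lower, with sums of 1805 and 2246 against 894 and 1033. The 2 lower ones, Cd8b1 and Tcra, passed the filter through the untreated arrays only, so they had to be lower. Cd8b1 had 722 and 727 against 137 and 98.6, and Tcra had 463 and 253 against 39.1 and 96.7. The sums include both genes, so neither the count nor the sums support a direction. Of 9 neutrophil genes, 2 were higher and 2 lower, and the 2 lower ones, Mmp8 and Mpo, again passed through the untreated arrays only. The neutrophil sums were 2533 and 2519 against 7870.1 and 11088, and most of that difference was Il1b, a cytokine that macrophages also make, with 365 and 354 against 5862 and 7134. Without Il1b the sums were 2168 and 2166 against 2008 and 3954, which overlap. Of 7 B and plasma cell genes 2 were higher and 1 lower, of 13 epithelial genes 3 and 2, and of 6 stromal and endothelial genes 0 and 1. The 16 genes tested of the gamma delta and intraepithelial lymphocyte list had 3 higher and 6 lower, with a median of -0.24, and of 0.11 at a common median. The genes of that list summed to 450006 and 542468 without DSS and to 276542 and 286709 after it. Most of that difference lay in Ccl5 and Itgae. The chemokine gene Ccl5 had 166892 and 171899 against 55884.5 and 65842, a log2 difference of -1.48 ± 0.34 (limma adjusted p = 0.56) that was -0.22 after quantile normalization. Itgae (CD103), an integrin chain that holds these cells in the epithelium, had 101512 and 98460 against 43558 and 43518. Its difference was -1.20 ± 0.33, and -0.41 after quantile normalization, but 0.52 on its other probe set. Both belong to the brightest class, with its median of -0.46. Whether any of these cells contributed to the granule gene signals was not tested.

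The genes most like a granule gene in pattern were those with the smallest root mean square log2 difference over the 4 arrays, each gene centred on its own mean. For Gzmb they were Dmac2 (0.02), Elmo3 (0.02) and Gal3st2 (0.03), and for Gzma Vtn (0.04), Ift43 (0.05) and Fmr1 (0.06). For Prf1 they were Mettl18 (0.02), Vps18 (0.02) and Atp6v1d (0.02), and for Srgn Abhd1 (0.01), Rnf31 (0.02) and Pik3ip1 (0.02). None is a granule gene, and 4 arrays cannot set such matches apart from coincidence among 12424 genes.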

How the data were processed

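Gamma delta intraepithelial lymphocyte RNA was isolated, amplified and labelled with biotin, 1 array per sample, per the labels' protocols. The authors deposited a linear intensity for each probe set and array, which GCOS produced, per the submitters' processing notes. Which version and settings were used is not given in the labels. Signals were analysed as log2(signal + 32) without further scaling, which understates changes of dim genes. Probe sets entered the fit when above the array's median on at least 2 of the 4 arrays, as all 12 granule probe sets did. Each gene was represented by its brightest kept probe set. All 12424 genes, and separately 24483 probe sets, were fitted with limma 3.58.1 in R 4.3.3 (intensity trend, group as the only term, Benjamini-Hochberg at 0.05), a step tested on simulated data. With 2 arrays per group, their number limits the precision.

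The platform annotation gave 1 gene symbol to 34958 probe sets, several to 932 and none to 9211. All 10 members matched RefSeq by gene number. The members, lists and settings were chosen with earlier results of these data known. Named genes were all members, up to 4 tested genes per pathway list with the smallest p, markers that define a cell type with up to 2 more per marker list, and the 3 most alike genes for 4 members. Replicate numbers were not taken as pairing: same-numbered deviations correlated at 0.05 across genes. No per-sample column was left unused. The other settings were quantile and common-median scaling, pseudocounts of 1 and 128, no filter or a stricter one, other probe set choices, no trend, a replicate block and leaving out each array.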

Additional observations from a re-analysis of the deposited data

How the results depend on the processing

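No granule gene passed limma under any setting that kept all 4 arrays. Limma called 0 genes and 0 probe sets as deposited, with 934 genes and 1778 probe sets at an unadjusted p under 0.05. It called 1 gene and 1 probe set with the stricter filter, 3 genes when probe sets were averaged, and 1 gene without _x_at and _s_at probe sets. With the replicate block it called 67 genes and 51 probe sets, 0 of them granule genes, and the numbers are not taken as pairing. Leaving out each array gave 0 to 1791 genes and 0 to 2770 probe sets, with fewer samples in each fit. Gzma was called without untreated replicate 2 (755 genes in all) and Nkg7 without untreated replicate 1 (1791 in all), where the spread comes from the DSS arrays alone. Genes higher on both DSS arrays numbered 2138 as deposited and 3833 at a common median. Genes lower on both numbered 2956, 1553 at a common median and 4558 of 18193 genes with no filter.

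Gzmb and Gzmc kept their direction in all 14 alternatives, at -0.81 to -0.16 and 0.59 to 1.03. Each has 1 probe set and separate groups as deposited. Only quantile normalization and common-median scaling could therefore have reversed them, and the other settings kept the direction by construction. Quantile normalization reversed Gzma (0.82), Prf1 (0.19) and Nkg7 (0.30). A common median reversed Gzmk (0.15), Prf1 (0.23), Nkg7 (0.30) and Serpinb9 (0.25). Averaging probe sets, with or without _x_at and _s_at sets, reversed Serpinb9 (0.17), whose probe sets differ in sign, and took Prf1 to -0.35 with separate groups. Leaving out each array gave ranges of -1.35 to 0.47 for Gzma, -0.58 to 0.19 for Gzmk, -0.96 to 0.063 for Gzmm, -0.32 to 0.16 for Prf1, -1.04 to 0.94 for Nkg7, -0.11 to 0.17 for Srgn, -0.32 to 0.14 for Serpinb9 and -0.015 to 0.52 for Serpinb6b. Except where stated, the cause was not tested. Prf1 and Gzmm, near the array medians, are limited by signal over background.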

Other observations

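Some other lymphocyte genes had the order of Nkg7 on the untreated arrays, and some had the opposite order. They were chosen after their values were seen. Cathepsin W (Ctsw), a protease of cytotoxic lymphocytes, had 14943 and 39853 on the untreated arrays and 21695 and 26888 after DSS. Cd7, a T cell surface protein, had 15358 and 47108 against 17909 and 22273, and Cd160, a receptor of intraepithelial lymphocytes, had 18293 and 38465 against 18619 and 24736. The receptor complex chain Cd3e had 7981 and 18964 against 10288 and 11548. Fasl had the order of Gzma, with 11089 and 3875 in untreated samples. So had Cd244a, with 13337 and 6928, and Id2, with 14500 and 3444. In contrast Cd3g was close on the untreated arrays, with 10949 and 12540 against 17026 and 13219 after DSS.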
